A study of Mus musculus with 70 samples.

Results

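The miR-29 family was followed in small RNA sequencing of CD45+ microglia and CD45- bulk cells from the developing and adult mouse brain. Its members were taken by name from the count table and comprise 7 mature miRNAs of 1882 features. They are the 3p arms mmu-miR-29a-3p, mmu-miR-29b-3p and mmu-miR-29c-3p and the 4 arms of the opposite side, mmu-miR-29a-5p, mmu-miR-29c-5p, mmu-miR-29b-1-5p and mmu-miR-29b-2-5p, written below without the prefix for mouse. All 7 were among the 1072 features kept by a filter of at least 1 CPM, a count per 1000000 counts of the library, in at least 5 libraries.

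Whole brains of wild-type C57BL/6 mice of both sexes were dissociated at postnatal day 6 (P6), P15 or 8 weeks, and no group carried a transgene or received a treatment. Cells bearing CD45, a surface protein of leukocytes that also marks microglia, were captured on antibody-coated dishes, and the cells that did not bind were kept as the bulk fraction of neurons, glia and other brain cells. The comparisons used 34 mice, each giving 1 microglial and 1 bulk library, with 10 mice at P6 (4 female and 6 male), 12 at P15 (6 and 6) and 12 at 8 weeks (6 and 6). Antibody against CD45 also captures monocytes, macrophages and other leukocytes, so the microglial fraction is defined by its surface protein.

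Library totals ran from 1678034 to 8747394 counts, lowest in P6 microglia (1678034 to 4066435) and highest in P6 bulk cells (5979569 to 8747394). All 6 myeloid marker miRNAs were higher in microglia at each age, with a summed median of 19854 CPM in P6 microglia against 283 CPM in P6 bulk cells, and 1 of the 6 was at 0 in every P6 bulk library. All 7 neuronal markers were lower in microglia at each age but were not absent there (a summed median of 27956 CPM in P6 microglia against 87106 CPM in P6 bulk cells). All 4 erythroid markers were higher in microglia at each age, with a summed median of 15215 CPM against 1976 CPM at P6. In such mixed fractions fewer cells of a type and less RNA per cell cannot be told apart.

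A miRNA guides Argonaute proteins to messenger RNAs that match it, chiefly through its seed, bases 2 to 8. Each hairpin precursor yields a 5p and a 3p arm, of which 1 usually accumulates as the guide while the other, the passenger, is mostly degraded. For miR-29 the 3p arms are the guides, and they are known for repressing collagens and other matrix genes, de novo DNA methyltransferases and, in maturing neurons, pro-apoptotic genes.

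The 3 guide arms are shown first because they share a seed, given in capitals here as in every sequence below, and differ only outside it. Sequences were read 5′ to 3′ from RefSeq (GRCm38.p6), and no other of the 1679 mature mouse names in that table has this seed.
mmu-miR-29a-3p: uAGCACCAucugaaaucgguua
mmu-miR-29b-3p: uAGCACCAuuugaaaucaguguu
mmu-miR-29c-3p: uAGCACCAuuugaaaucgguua

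Counted from 1 at the 5′ end, miR-29a-3p differs from miR-29c-3p by the single substitution C10U, with the base of miR-29a-3p written first. miR-29b-3p shares its first 17 bases with miR-29c-3p and differs from it by A18G, G21U and U22A, and is 23 rather than 22 bases long. A counter that tolerates a mismatch may therefore assign some reads of miR-29a-3p and miR-29c-3p to each other.

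The 4 passenger arms are shown because their seeds all differ and each comes from a single precursor.
mmu-miR-29a-5p: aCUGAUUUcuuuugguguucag
mmu-miR-29b-1-5p: gCUGGUUUcauauggugguuua
mmu-miR-29c-5p: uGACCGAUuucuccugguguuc
mmu-miR-29b-2-5p: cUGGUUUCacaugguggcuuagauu

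From its second base, miR-29b-1-5p matches the first 9 bases of miR-29b-2-5p, so their seeds are shifted against each other by 1 base. Outside that stretch they differ at 2 of the remaining aligned positions, and miR-29b-2-5p is 25 bases long.

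The family comes from 4 precursors in 2 clusters. On chromosome 6, on the minus strand, lie Mir29a (chr6:31062660-31062747) and Mir29b-1 (chr6:31063023-31063093), 275 bases apart. Mir29b-1 overlaps an exon of the long non-coding RNA gene Gm27019 on the same strand, and no gene other than its own was annotated over Mir29a in GENCODE vM21. On chromosome 1, on the plus strand, lie Mir29b-2 (chr1:195037040-195037120) and Mir29c (chr1:195037547-195037634), 426 bases apart and both overlapping exons of the non-coding transcript A330023F24Rik. Both also overlap exons of Cd46, a coding gene on the opposite strand. Mir29b-1 and Mir29b-2 give an identical miR-29b-3p, and the 2 entries for it in the count table differed by 0.0335% to 0.389% (median 0.126%) across libraries. The guide of miR-29b was therefore counted from its larger entry and could not be assigned to a cluster, whereas the passengers could.

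Guide levels were compared first, to ask how much of the miRNA pool the family occupies in each fraction and at each age. The 3 guides together accounted at P6 for 1.91% ± 0.62 (SD, n = 10) of the microglial counts and 0.236% ± 0.0318 (SD, n = 10) of the bulk counts. At P15 they made up 4.39% ± 1.09 (SD, n = 12) and 1.02% ± 0.152 (SD, n = 12). At 8 weeks they reached 8.80% ± 1.16 (SD, n = 12) in microglia and 6.705% ± 0.802 (SD, n = 12) in bulk cells, with individual libraries between 6.16% and 10.3% and between 5.32% and 8.18%, so the fractions overlapped only at this age.

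mmu-miR-29b-3p was the leading guide in every group. Its lowest, median and highest values were 9253, 11540 and 24955 CPM in P6 microglia, 15546, 27879 and 39501 CPM in P15 microglia, and 32557, 53857 and 65137 CPM in 8-week microglia. In bulk cells they were 1206, 1384 and 1829 CPM at P6, 5619, 7187 and 10483 CPM at P15, and 34523, 44871 and 58881 CPM at 8 weeks. By mean CPM it was the 4th most abundant feature of 8-week microglia and the 7th of 8-week bulk cells, against the 18th and the 70th at P6. The bulk libraries of successive ages did not overlap, while microglial libraries of P15 overlapped with those of P6 and, unless scaled by TMM (trimmed mean of M values, the scaling used in the fit), with those of 8 weeks.

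mmu-miR-29a-3p, the guide made only from the chromosome 6 cluster, came second in microglia. It was found at 3965, 5141 and 8403 CPM (lowest, median, highest) in P6 microglia, 10577, 14171 and 21627 CPM at P15 and 26944, 34578 and 39330 CPM at 8 weeks. In bulk cells the values were 425, 512 and 659 CPM at P6, 1570.1, 1891 and 2271 CPM at P15, and 14117, 16078 and 19161 CPM at 8 weeks. The fractions did not overlap at any age, and neither did the ages within a fraction.

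mmu-miR-29c-3p, the guide of the chromosome 1 cluster, was the least abundant guide in every group by median. Its values in microglia were 336, 421 and 581 CPM at P6, 549.96, 737 and 792 CPM at P15, and 1696, 2073 and 2417 CPM at 8 weeks. In bulk cells they were 365, 414 and 570.3 CPM at P6, 849, 991 and 1088 CPM at P15, and 4246, 4548 and 5682 CPM at 8 weeks. The fractions overlapped at P6, and at 8 weeks every bulk library lay above every microglial one. At P15 they were apart in CPM of the library total but overlapped once scaled by TMM. At P6, miR-29a-3p and miR-29c-3p overlapped in bulk cells, whereas in P6 microglia the lowest value of miR-29a-3p was above the highest of miR-29c-3p.

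**Figure D1:**
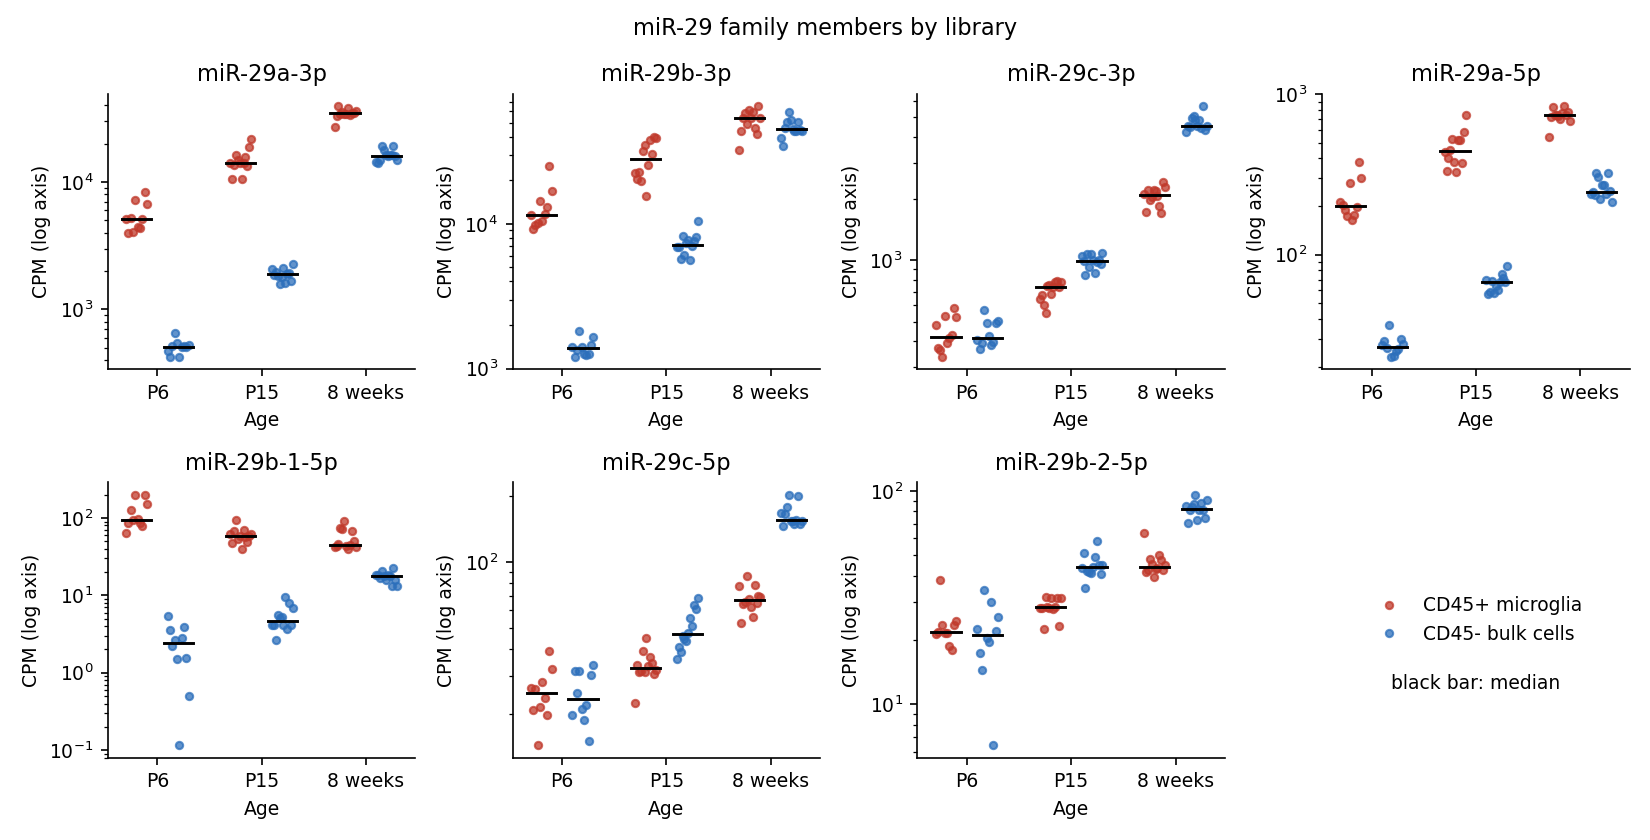
CPM of the 7 members on log axes by age, with 1 point per library (10 mice at P6, 12 at P15 and at 8 weeks), red for CD45+ microglia, blue for CD45- bulk cells and a black bar at the median. Members of the chromosome 6 cluster and miR-29b-3p stand higher in microglia at P6, while miR-29c-3p, miR-29c-5p and miR-29b-2-5p overlap there and stand higher in bulk cells at 8 weeks.

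As a share of the 3 guides, miR-29c-3p made up 2.4% ± 0.313 (SD) in P6 microglia and 18.7% ± 1.02 (SD) in P6 bulk cells. At 8 weeks its share was 2.37% ± 0.35 (SD) in microglia and 7.07% ± 0.606 (SD) in bulk cells. The share of miR-29a-3p in microglia was 28.9% ± 2.69 (SD) at P6, 34.3% ± 4.8 (SD) at P15 and 39.5% ± 3.32 (SD) at 8 weeks, and in bulk cells 21.7% ± 1.51, 18.7% ± 2.05 and 24.3% ± 1.46 (SD). miR-29b-3p held between 58.2% and 71.5% of the guide counts in every group by mean. Efficiencies of cloning differ between sequences and were not measured, so levels of different members are compared here as CPM and not as molecules.

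Microglia were then compared with bulk cells of the same age to ask which members are enriched in microglia. Enrichment divided the family by genomic cluster. At P6 both arms of miR-29a, the passenger miR-29b-1-5p and the shared guide miR-29b-3p were higher in microglia, and at P15 the same 4 members were. At 8 weeks the difference was smaller for each of these 4, and the members made only from chromosome 1 lay lower in microglia. A call needed limma's TREAT test of a change beyond a log2 fold change of 1 at a Benjamini-Hochberg adjusted p below 0.05 over all 1072 features.

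At P6, 4 of the 7 members were called higher in microglia and 0 lower, where 17.4% of all features tested were called higher. miR-29b-1-5p differed most, by 5.68 ± 0.27 on the log2 scale (SE, adjusted p = 6.46e-25), the 12th highest of the 1072 features. The log2 fold change of miR-29a-3p was 3.26 ± 0.11 (SE, adjusted p = 2.15e-28), that of its passenger miR-29a-5p 2.88 ± 0.12 (SE, adjusted p = 4.42e-22) and that of miR-29b-3p 3.03 ± 0.13 (SE, adjusted p = 3.73e-22). Each of these 4 was higher in microglia in 10 of 10 mice. The 3 chromosome 1 members were not called, at -0.11 ± 0.09 (SE) for miR-29c-3p, -0.12 ± 0.13 (SE) for miR-29c-5p and 0.12 ± 0.16 (SE) for miR-29b-2-5p, with approximate 95% intervals of -0.29 to 0.07, -0.38 to 0.13 and -0.19 to 0.42. They were higher in microglia in 4, 5 and 5 of 10 mice. The median over the members was 2.88, beside 0.25 over all features.

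At P15, 21.3% of all features were called higher in microglia and 4 of the 7 members were. miR-29b-1-5p stood at 3.73 ± 0.22 on the log2 scale (SE, adjusted p = 4.44e-18), miR-29a-3p at 3.16 ± 0.09 (SE, adjusted p = 1.79e-31), miR-29a-5p at 2.97 ± 0.10 (SE, adjusted p = 2.87e-27) and miR-29b-3p at 2.12 ± 0.11 (SE, adjusted p = 3.08e-14), each in 12 of 12 mice. The chromosome 1 members lay between -0.28 and -0.44 and were not called by this test, being higher in microglia in 1, 1 and 0 of 12 mice for miR-29c-3p, miR-29c-5p and miR-29b-2-5p.

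At 8 weeks only the 2 passengers of chromosome 6 were called higher, where 21.2% of all features were, and 1 chromosome 1 passenger was called lower, where 23.7% of all features were. miR-29b-1-5p stood at 1.67 ± 0.16 on the log2 scale (SE, adjusted p = 0.000107) and miR-29a-5p at 1.57 ± 0.09 (SE, adjusted p = 9.04e-08). miR-29c-5p stood at -1.22 ± 0.09 (SE, adjusted p = 0.0175). The guides miR-29a-3p (1.15 ± 0.08, SE, adjusted p = 0.0797) and miR-29c-3p (-1.13 ± 0.07, SE, adjusted p = 0.075) stood just past the threshold of 1 in opposite directions without passing the test. The calls of these 3 turned on the setting. miR-29a-3p was called when any of 20 of the 34 mice was left out. Of those 20 only 8-week female 4 and 8-week male 3 were 8-week mice, and without each of the others the value was 1.19. miR-29c-3p was called when any of 3 mice was left out, and miR-29c-5p lost its call without 8-week female 4 (adjusted p = 0.0555) or 8-week male 4 (adjusted p = 0.0563). Their direction did not vary among mice, since miR-29a-3p was higher in microglia in 12 of 12 mice, and miR-29c-3p and miR-29c-5p in 0 of 12. miR-29b-3p (0.21 ± 0.10, SE) and miR-29b-2-5p (-0.79 ± 0.11, SE) were not called, and were higher in microglia in 8 and 0 of 12 mice. The median over the members was 0.21, beside -0.10 over all features.

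Pooled over the 3 ages, 23.3% of features were called higher and the same 4 members were, with log2 fold changes of 2.52 ± 0.06 for miR-29a-3p, 1.79 ± 0.07 for miR-29b-3p, 2.47 ± 0.06 for miR-29a-5p and 3.69 ± 0.13 (SE) for miR-29b-1-5p. The chromosome 1 members lay between -0.37 and -0.57.

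**Figure D2:**
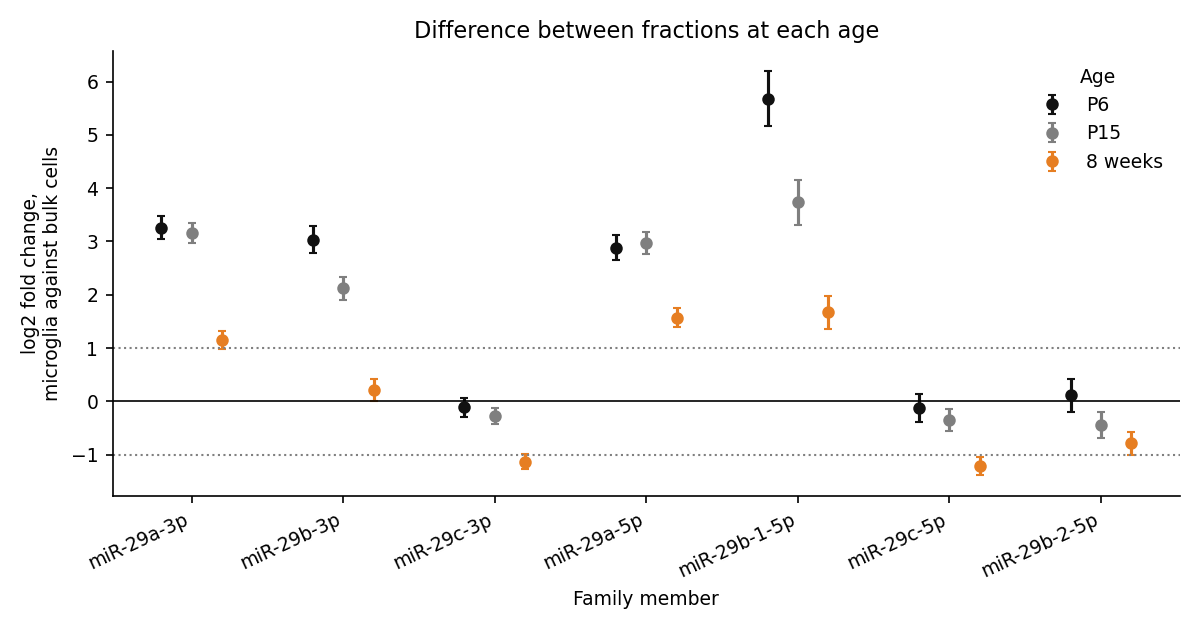
Log2 fold change of microglia against bulk cells for each member at P6 (black), P15 (grey) and 8 weeks (orange), with bars for approximate 95% intervals and dotted lines at the threshold of 1 in either direction. The 4 members on the left and centre with values above 2 at P6 and P15 fall towards 0 at 8 weeks, and the members of chromosome 1 lie near or below 0 at each age.

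Levels in the fraction where a member was lower were set beside those of the markers. Mean CPM in bulk cells as a percentage of that in microglia was 0.351% for the myeloid miR-223-3p and 0.753% for miR-142a-3p at P6, against 9.38% for miR-29a-3p, 10.7% for miR-29b-3p and 2.04% for miR-29b-1-5p. The last of these rests on bulk libraries with 1 to 34 counts, and how much of the members' bulk level came from myeloid RNA was not tested. In the other direction, mean CPM in microglia at 8 weeks was 16.3% of that in bulk cells for the neuronal miR-124-3p, against 43.7% for miR-29c-3p, 41.1% for miR-29c-5p and 55.5% for miR-29b-2-5p. Erythroid markers were also higher in microglia, and their part in these differences was not tested.

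The ages were compared within each fraction to ask when the family rises. In microglia, all 3 guides and the passengers other than miR-29b-1-5p were higher at 8 weeks than at P6, and in bulk cells all 7 members were. From P6 to 8 weeks, 6 of the 7 members were called higher in microglia, where 7.18% of all features were. On the log2 scale the rise was 3.20 ± 0.10 (SE, adjusted p = 2.15e-29) for miR-29a-3p, the 8th highest of 1072 features, 2.72 ± 0.09 (SE, adjusted p = 1.68e-26) for miR-29c-3p and 2.52 ± 0.12 (SE, adjusted p = 2.35e-17) for miR-29b-3p. The called passengers stood at 2.23 ± 0.11 (SE, adjusted p = 6.45e-16) for miR-29a-5p, 1.96 ± 0.13 (SE, adjusted p = 4.05e-09) for miR-29c-5p and 1.45 ± 0.16 (SE, adjusted p = 0.0182) for miR-29b-2-5p. For these 6 the libraries of P6 and 8 weeks did not overlap, and how many of all features were likewise apart was not counted.

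mmu-miR-29b-1-5p was the exception in microglia. It was found at 64.0, 94.9 and 201 CPM (lowest, median, highest) in P6 microglia, 40.0, 58.6 and 92.8 CPM at P15 and 40.1, 45.4 and 91.1 CPM at 8 weeks, behind which stood 135 to 514 counts per library. The groups overlapped, and the log2 fold change from P6 to 8 weeks was -0.53 ± 0.15 (SE), which did not pass the threshold test (adjusted p = 1) and had an adjusted p of 0.0021 in limma's moderated test without the threshold. In bulk cells the same passenger was found at 0.115, 2.41 and 5.37 CPM at P6, 2.66, 4.63 and 9.66 CPM at P15 and 13.1, 17.8 and 22.5 CPM at 8 weeks. Its P6 bulk libraries held 1 to 34 counts, and male 2 with 1 count and male 6 with 3 counts lay at or under the 3 counts taken as the floor (0.343 to 0.502 CPM in this group), so its P6 bulk level is the least certain value here.

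Taken by interval, fewer members passed in microglia. From P6 to P15 only miR-29a-3p was called (1.63 ± 0.10, SE, adjusted p = 4.15e-06), where 0.746% of all features were called higher. miR-29b-3p stood at 1.30 ± 0.13 on the log2 scale (SE, adjusted p = 0.239) and was called when P15 male 1 (adjusted p = 0.032) or P6 male 5 (adjusted p = 0.0488) was left out. From P15 to 8 weeks miR-29c-3p (1.87 ± 0.08, SE, adjusted p = 6.73e-14), miR-29a-3p (1.57 ± 0.09, SE, adjusted p = 1.37e-06) and miR-29c-5p (1.36 ± 0.11, SE, adjusted p = 0.0168) were called, where 1.77% of all features were. miR-29b-3p had 1.23 ± 0.11 (SE, adjusted p = 0.304), and it was called without any of 5 of the P15 mice.

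In bulk cells 2 members were called before P15 and all 7 after it, the lowest of them not under every setting. From P6 to P15, 1.87% of all features were called higher and so were miR-29b-3p (2.21 ± 0.13, SE, adjusted p = 2.79e-11) and miR-29a-3p (1.73 ± 0.11, SE, adjusted p = 7.01e-07). From P15 to 8 weeks all 7 members were called higher, where 6.06% of all features were, led by miR-29a-3p at 3.58 ± 0.10 (SE), miR-29b-3p at 3.14 ± 0.12 (SE) and miR-29c-3p at 2.73 ± 0.08 (SE). The lowest of the 7, miR-29b-2-5p at 1.36 ± 0.12 (SE, adjusted p = 0.0185), lost its call when any of 13 of the 34 mice was left out. It also lost it with DESeq2 (adjusted p = 0.726) and, in limma, with DESeq2 size factors (adjusted p = 0.349) or summed entries (adjusted p = 0.426). Library size alone (0.89), no filter (adjusted p = 0.0901) and the filter of 10 counts in 12 libraries (adjusted p = 0.0677) lost it too. With edgeR it was kept (adjusted p = 0.007). From P6 to 8 weeks all 7 were called higher, where 13.2% of all features were, and miR-29b-3p (5.34 ± 0.13, SE, adjusted p = 1.37e-40) and miR-29a-3p (5.31 ± 0.11, SE, adjusted p = 1.19e-44) had the 5th and the 7th highest fold changes of 1072. The remaining members followed at 3.75 ± 0.09 (SE) for miR-29c-3p, 3.54 ± 0.12 (SE) for miR-29a-5p, 3.48 ± 0.29 (SE) for miR-29b-1-5p, 3.06 ± 0.11 (SE) for miR-29c-5p and 2.36 ± 0.13 (SE) for miR-29b-2-5p. The median over the members was 3.54, beside 0.32 over all features.

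Markers of other cell types moved with age in the bulk cells as well. The summed level of the 3 oligodendrocyte markers had a median of 1896 CPM at P6 (1114 to 2852), 17458 CPM at P15 (8753 to 22455) and 25957 CPM at 8 weeks (16167 to 34040), without overlap between P6 and the later ages. The 7 neuronal markers had summed medians of 87106, 111104 and 153357 CPM at the 3 ages, with overlapping ranges. The 2 endothelial markers stood at 27403, 33338 and 16617 CPM, again with overlap. In microglia the summed median of the 6 myeloid markers was 19854, 41157 and 49473 CPM, and that of the 4 erythroid markers 15215, 45465 and 23959 CPM. The part of these shifts in the members' rise with age was not tested.

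Whether the enrichment itself changed with age was tested as an interaction between fraction and age. From P6 to 8 weeks the microglial enrichment fell for 3 members, where 7.93% of all features had such a fall. The change in log2 fold change was -4.01 ± 0.31 (SE, adjusted p = 7.67e-13) for miR-29b-1-5p, -2.82 ± 0.17 (SE, adjusted p = 7.12e-15) for miR-29b-3p and -2.10 ± 0.14 (SE, adjusted p = 6.95e-10) for miR-29a-3p. The other members had values of -1.32 ± 0.15 (SE, adjusted p = 0.119) for miR-29a-5p, -1.10 ± 0.16 (SE) for miR-29c-5p, -1.02 ± 0.12 (SE) for miR-29c-3p and -0.91 ± 0.19 (SE) for miR-29b-2-5p and did not pass the test. From P15 to 8 weeks the same 3 members passed, at -2.01 ± 0.13 (SE, adjusted p = 2.41e-09) for miR-29a-3p, -1.91 ± 0.15 (SE, adjusted p = 4.23e-06) for miR-29b-3p and -2.06 ± 0.27 (SE, adjusted p = 0.00408) for miR-29b-1-5p, where 1.87% of all features fell. In the same interval miR-29a-5p stood at -1.41 ± 0.14 (SE) with an adjusted p of 0.0555, and it was called with the mouse as a fixed block (adjusted p = 0.0406), with edgeR's quasi-likelihood test (adjusted p = 0.012) and when any of 6 of the 34 mice was left out, while its adjusted p was 0.593 with DESeq2. Without P15 female 3 the value for miR-29b-1-5p was -1.84 with an adjusted p of 0.0513. From P6 to P15 none of the 7 passed limma's test, nor did any with edgeR or DESeq2, where limma called 1.59% of all features in either direction. The largest value in that interval was -1.95 ± 0.34 (SE) for miR-29b-1-5p, with an adjusted p of 0.182 in the threshold test, 8.59e-06 in limma's test without the threshold and 0.0239 in the threshold test without P6 male 4.

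Without the threshold, limma tests against a log2 change of 0 and called many features, so its counts stand here beside their own background. The 3 members of chromosome 1 were called lower in microglia at P15, at 8 weeks and pooled over the ages, where 33.3%, 38.2% and 37.8% of all features were, and 3 members were called higher at 8 weeks, where 34.9% were. In each of these, 3 of 7 members is near the background and says nothing particular of the family. In microglia 6 members were called higher from P6 to P15 and 6 from P15 to 8 weeks, where 15.9% and 17.7% of all features were. miR-29b-1-5p was called lower there from P6 to P15 and from P6 to 8 weeks, as were 18.3% and 30.3% of all features. In bulk cells all 7 were called higher from P6 to P15, where 17.8% of all features were. A falling enrichment was called for 3 members from P6 to P15, 6 from P15 to 8 weeks and 7 from P6 to 8 weeks, where 11.6%, 25.2% and 35.7% of all features had one. The median change of enrichment over all features in the last 2 of these was itself below 0, at -0.35 and -0.49.

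Ratios of counts within a library do not depend on the scaling between libraries, and they were used to compare the clusters. For each of 6 ratios, 6 contrasts were tested and p-values adjusted over the 36 tests, by exact permutation of signs within mice for the fractions and by permutation of mice for the ages. The ratio of miR-29a-3p to miR-29c-3p had a median of 12.1 in P6 microglia (lowest 10.4, highest 14.4) and of 1.16 in P6 bulk cells (1.01 to 1.34). At P15 the medians were 20.0 and 1.92, and at 8 weeks 17.3 (12.8 to 20.5) and 3.38 (3.1 to 3.83). The fractions did not overlap at any age. The mean log2 difference between the fractions of a mouse was 3.38 ± 0.25 (SD, n = 10, adjusted exact permutation p = 0.00281) at P6, 3.44 ± 0.35 (SD, n = 12, adjusted exact permutation p = 0.000879) at P15 and 2.29 ± 0.22 (SD, n = 12, adjusted exact permutation p = 0.000879) at 8 weeks. The unadjusted p behind each was the smallest that the sign flips can give.

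The passengers of the same precursors were compared in the same way, with fewer counts. The ratio of miR-29a-5p to miR-29c-5p had medians of 9.4, 13.9 and 11.2 in microglia at P6, P15 and 8 weeks and of 1.12, 1.35 and 1.57 in bulk cells. The mean log2 difference was 2.99 ± 0.48 (SD), 3.32 ± 0.48 (SD) and 2.79 ± 0.23 (SD) at the 3 ages, in the same direction in every mouse.

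The ratio of miR-29b-1-5p to miR-29b-2-5p compares the precursors of miR-29b, whose guide cannot be assigned. In microglia its median was 4.4 at P6 (lowest 2.97, highest 9.27), 2.01 at P15 (1.27 to 2.98) and 1.07 at 8 weeks (0.668 to 2.32). In bulk cells the median was 0.0859 at P6 (0.0088 to 0.618), 0.114 at P15 (0.0656 to 0.199) and 0.215 at 8 weeks (0.145 to 0.277). The chromosome 6 passenger was thus the more abundant in each P6 and P15 microglial library and the less abundant in each bulk library. The mean log2 difference between the fractions was 5.72 ± 1.99 (SD, n = 10), 4.17 ± 0.61 (SD, n = 12) and 2.47 ± 0.56 (SD, n = 12).

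With age this ratio moved in opposite directions in the fractions. From P6 to 8 weeks its log2 value fell by 2.05 ± 0.22 (SE, adjusted permutation p = 4.5e-05) in microglia and rose by 1.19 ± 0.56 (SE, adjusted permutation p = 0.0253) in bulk cells. The rise in bulk cells was 0.82 without P6 male 2 (adjusted permutation p = 0.0627) and 0.97 without P6 male 6 (adjusted permutation p = 0.0555), the mice with 1 and 3 counts of miR-29b-1-5p. The difference between the fractions changed by -3.24 ± 0.65 (SE, adjusted permutation p = 6.55e-05). The corresponding change was -1.10 ± 0.10 (SE, adjusted permutation p = 4.5e-05) for the ratio of miR-29a-3p to miR-29c-3p and -0.20 ± 0.17 (SE, adjusted permutation p = 0.222) for that of miR-29a-5p to miR-29c-5p, the latter with an approximate 95% interval of -0.53 to 0.12. The ratio of miR-29a-3p to miR-29c-3p rose with age by 1.57 ± 0.05 (SE) in bulk cells and by 0.47 ± 0.08 (SE) in microglia.

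**Figure D3:**
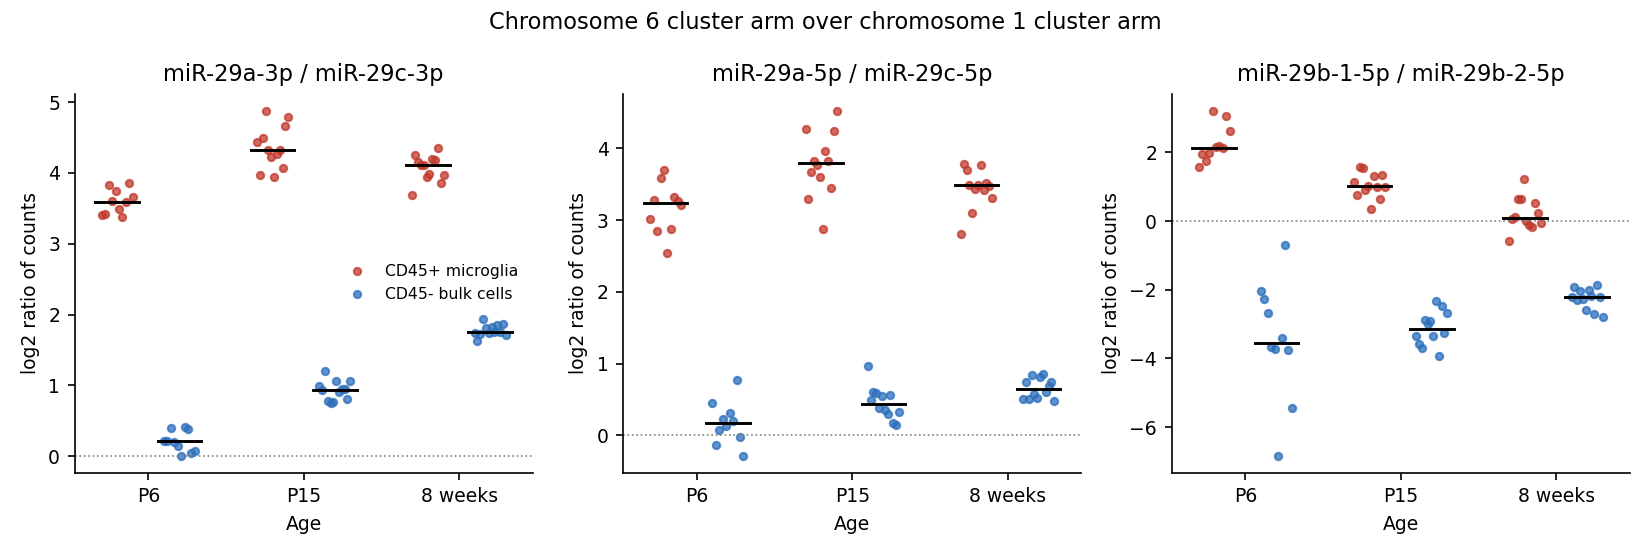
Log2 ratio of the counts of a chromosome 6 arm to those of the matching chromosome 1 arm, with 1 point per library by age, red for microglia, blue for bulk cells and a black bar at the median. The fractions are apart at each age in each panel, and in the right panel the medians fall with age in microglia, from 2.14 to 0.09, and rise in bulk cells, from -3.54 to -2.22.

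Guide and passenger arms were compared to ask whether they rose by the same amount. Both arms of miR-29a and of miR-29c rose with age in both fractions, and the guide rose more than the passenger. The guide of miR-29b, shared by both its precursors, also rose relative to its summed passengers in both fractions. Guide counts of miR-29a were a median of 24.3 times those of the passenger in P6 microglia (19.3 to 27.2) and 46.8 times in 8-week microglia (39.5 to 52.2). In bulk cells the ratio went from 18.7 (14.7 to 23.4) to 59.8 (57.4 to 73.2). On the log2 scale it rose by 0.96 ± 0.06 (SE) in microglia and by 1.74 ± 0.07 (SE) in bulk cells, each with an adjusted permutation p of 4.5e-05 that rests on the smallest p the resamples can give. The difference between the fractions changed sign with age, from 0.37 ± 0.13 (SD, higher in microglia in 10 of 10 mice) at P6 to -0.41 ± 0.16 (SD, in 0 of 12 mice) at 8 weeks, a change of -0.78 ± 0.06 (SE, adjusted permutation p = 4.5e-05).

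For miR-29b the guide was set against the sum of both passengers. The median ratio rose from 92.2 in P6 microglia to 319 at P15 and 499.8 at 8 weeks, and in bulk cells from 62.3 to 148 and 468. On the log2 scale the rise from P6 to 8 weeks was 2.44 ± 0.17 (SE) in microglia and 2.89 ± 0.15 (SE) in bulk cells, each with an adjusted permutation p of 4.5e-05. The fractions differed by 0.60 ± 0.61 (SD, adjusted exact permutation p = 0.0156, higher in microglia in 8 of 10 mice) at P6, by 1.10 ± 0.57 (SD, adjusted exact permutation p = 0.00167, in 11 of 12 mice) at P15 and by 0.15 ± 0.39 (SD, adjusted exact permutation p = 0.222, in 7 of 12 mice) at 8 weeks.

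For miR-29c the median ratio was 17.5 in P6 microglia and 32.6 at 8 weeks, and 17.7 and 28.7 in bulk cells. The log2 value rose by 0.77 ± 0.12 (SE) in microglia and by 0.66 ± 0.12 (SE) in bulk cells, each with an adjusted permutation p of 6.55e-05. The fractions differed by -0.03 ± 0.36, 0.07 ± 0.40 and 0.09 ± 0.18 (SD) at P6, P15 and 8 weeks, less than the spread between mice at each age, with adjusted exact permutation p-values of 0.812, 0.554 and 0.136.

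**Figure D4:**
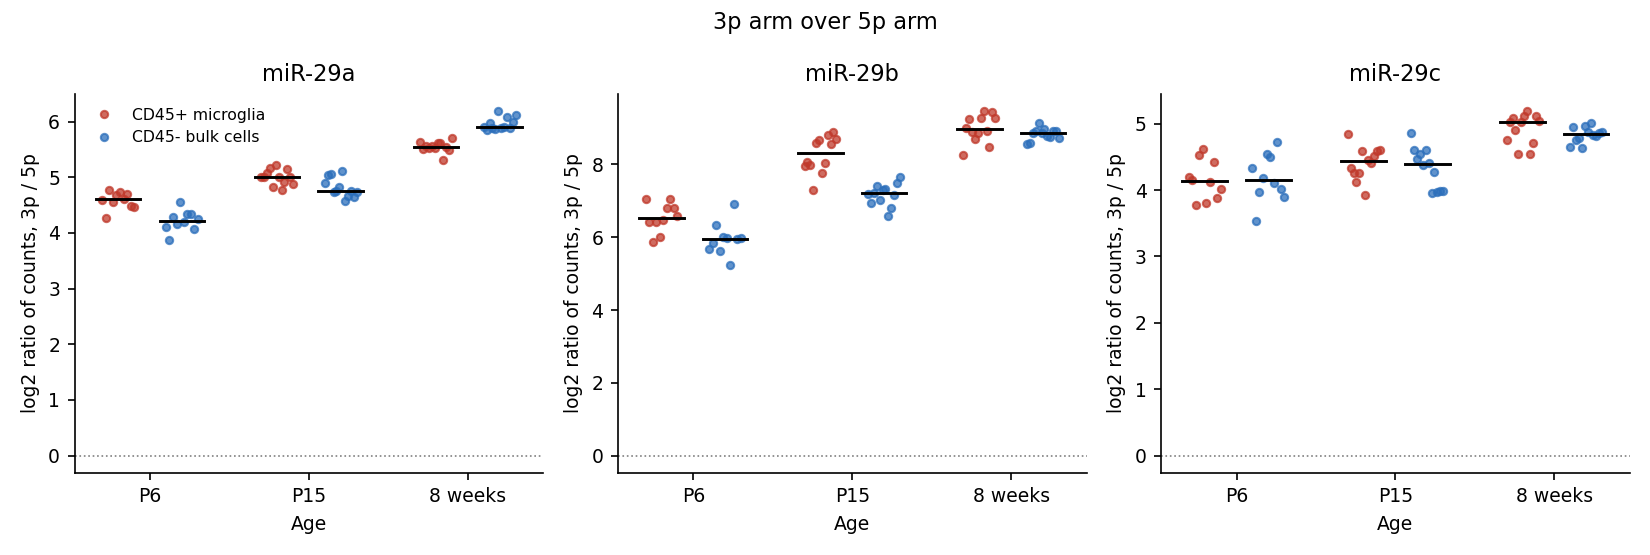
Log2 ratio of 3p to 5p counts for miR-29a, miR-29b (5p arms summed) and miR-29c, with 1 point per library by age, red for microglia, blue for bulk cells and a black bar at the median. The ratio is higher at 8 weeks than at P6 in both fractions for all 3, and for miR-29a microglia stand above bulk cells at P6 and below them at 8 weeks.

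The passengers of chromosome 1 were low but measurable throughout. miR-29c-5p was found at 14.4, 24.99 and 39.1 CPM (lowest, median, highest) in P6 microglia and 15.03, 23.5 and 33.8 CPM in P6 bulk cells, and at 52.7, 66.8 and 86.7 CPM and 147, 156 and 204 CPM at 8 weeks. miR-29b-2-5p was found at 17.99, 21.7 and 38.1 CPM in P6 microglia and 6.42, 21.2 and 34.4 CPM in P6 bulk cells, and at 39.3, 44.1 and 63.5 CPM and 70.7, 82.6 and 96.1 CPM at 8 weeks. For both, the fractions overlapped at P6 and were apart at 8 weeks. miR-29a-5p was the most abundant passenger, at a median of 202 CPM in P6 microglia and 742 CPM at 8 weeks, and 26.8 and 248 CPM in bulk cells. At P6 in bulk cells it overlapped with miR-29c-5p and miR-29b-2-5p, and in microglia it lay above both in every library.

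Males and females were compared at each age in each fraction. None of the 42 comparisons of a member passed limma's test, nor any with edgeR or DESeq2. In limma's test none of the 1072 features passed in any of these groups, so this says nothing particular of the family. In limma's test without the threshold 2 had an unadjusted p below 0.05, 1 of 7 in P6 microglia and 1 of 7 in P6 bulk cells, where 8.49% and 9.98% of all features had one. That is near the background. They were miR-29b-3p in P6 microglia, with a male to female log2 fold change of 0.43 ± 0.19 (SE), and miR-29b-1-5p in P6 bulk cells, with one of -1.59 ± 0.51 (SE), the group with 1 to 34 counts.

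The miRNAs outside the family whose levels tracked it most closely were ranked by Pearson's r of log2 CPM over the 68 libraries among 335 miRNAs with a mean log2 CPM of at least 5. These r are descriptions over libraries that share mice and fractions. For miR-29a-3p they were miR-1839-3p (0.954), miR-3068-5p (0.942) and miR-24-3p (0.935), and for miR-29b-3p miR-1839-3p (0.955), miR-3068-5p (0.945) and miR-22-5p (0.929). miR-29c-3p was most like miR-27b-3p (0.965), miR-23b-3p (0.953) and miR-664-3p (0.934). miR-29b-1-5p had a different set, miR-21a-5p (0.939), miR-378a-3p (0.925) and miR-378c (0.906), none of them shared with a guide. miR-21a-5p, like miR-29b-1-5p, stood higher in microglia at P6 (log2 fold change 2.92), and its log2 fold changes from P6 to 8 weeks were -0.67 in microglia and 1.80 in bulk cells. The same changes were -0.14 and 0.70 for miR-378a-3p and -0.043 and 0.69 for miR-378c. All were picked for likeness over these same libraries, so the match is no test.

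Within the family, r over the 34 microglial libraries lay between -0.40 and -0.33 for miR-29b-1-5p with each of the other 6 members, and between 0.82 and 0.99 for every other pair. Over the 34 bulk libraries all 21 pairs lay between 0.82 and 0.996. Each of these r is taken over all 3 ages and so reflects the age groups.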

How the data were processed

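Small RNA libraries of microglia and bulk cells were sequenced by the authors, who trimmed reads with fastp 0.20.0, dropped short reads and counted miRNAs with miRDeep2 against miRBase and mm10 (GRCm38). The deposited file holds raw counts per miRNA or candidate, without normalisation. Multimapping reads can be counted at several precursors, so for names entered more than 1 time the entry with the largest total was used (1885 names, 1882 features after identical candidates were merged).

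Counts were scaled by TMM (edgeR 4.0.16) and fitted with limma-voom 3.58.1 (R 4.3.3) over 12 group means of age, sex and fraction, with the mouse as a random block. Both fractions of a mouse carry its number in the titles. Deviations of paired libraries from their group means correlated at 0.121 on average (-0.0646 to 0.322), and the consensus correlation was 0.124. The same number at another age or sex is another mouse. CPM are counts per 1000000 of the library total, and log2 CPM for correlations used TMM and a prior count of 2. Ratios were log2 of counts plus 0.5, tested by enumerated sign flips within mice or 100000 permutations of mice, two-sided.

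P6 female 6 was set aside, because the study removed 1 mouse as an outlier and its source data do not list that mouse. This is an inference. Libraries of a group differed by more than sampling noise (chi-square per degree of freedom of at least 26.9), so none was a duplicate. The fit recovered most planted changes well past the fold change threshold, in counts simulated without correlation between the libraries of a mouse. That says nothing of values near the threshold. Alternatives were DESeq2 1.42.0, edgeR's quasi-likelihood test, other scalings, filters, blocks, summed entries and each mouse left out. The members and lists were chosen with earlier results of these data known. The named miRNAs are the members and, for 4 of them, the 3 most correlated miRNAs outside the family. Markers were 6 myeloid, 7 neuronal, 4 erythroid, 3 oligodendrocyte, 2 endothelial and 4 mural or fibroblast miRNAs. All 3 oligodendrocyte markers at P15 and 8 weeks (2 at P6) and both endothelial markers were called lower in microglia, and 0 of the 4 mural or fibroblast markers was called in either direction at any age. The floor of 3 counts covers counting error only.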

Additional observations from a re-analysis of the deposited data

Results flagged for a closer look

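The change of microglial enrichment passed limma's test against a log2 change of 1 for 3 members between P15 and 8 weeks and between P6 and 8 weeks. In these intervals 1.87% and 7.93% of all features had such a fall. Without that threshold 6 members passed between P15 and 8 weeks and 7 between P6 and 8 weeks, where 25.2% and 35.7% of all features had such a fall. Between P15 and 8 weeks the interaction was -2.01 for miR-29a-3p, -1.91 for miR-29b-3p and -2.06 for miR-29b-1-5p, and between P6 and 8 weeks it was -2.10, -2.82 and -4.01. Among the ratios, the difference between the fractions of a mouse changed from P6 to 8 weeks by -0.78 on the log2 scale for miR-29a-3p over miR-29a-5p, by -1.10 for miR-29a-3p over miR-29c-3p and by -3.24 for miR-29b-1-5p over miR-29b-2-5p. miR-29a-5p, which shares the precursor of miR-29a-3p, had an interaction of -1.32 between P6 and 8 weeks and of -1.41 between P15 and 8 weeks (adjusted p = 0.0555), neither past the threshold test.

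Each of the 7 members was checked in each of the 12 groups of libraries of 1 sex, age and fraction, 84 checks in all on the same libraries. In 5 of them a library stood far from the others of its group by Dixon's ratio of gap to range on log2 CPM scaled by TMM, and chance marks about 1 check in 20. On CPM of the library total 8 checks passed and none of them was among these 5, so no check passed on both scales. On the TMM scale it was, for miR-29a-3p, 8-week female 4 in bulk cells, the highest of 6 at 18958 CPM (ratio 0.649, or 0.24 on CPM). For miR-29b-3p it was 8-week female 1 in microglia, the lowest at 32557 CPM (ratio 0.719, or 0.391 on CPM). For miR-29c-5p it was P15 male 1 in microglia, the highest at 44.7 CPM (ratio 0.663, or 0.57 on CPM). For miR-29b-1-5p it was P15 female 3 in bulk cells, the lowest at 2.66 CPM (ratio 0.633, or 0.498 on CPM), the mouse without which the change of enrichment between P15 and 8 weeks lost its call. For miR-29b-2-5p it was P6 male 4 in bulk cells, the lowest at 6.42 CPM (ratio 0.713, or 0.556 on CPM), with 44 counts. No explanation of these values was tested.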

How the results depend on the processing

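Counts of members called held within 1.5 times in 264 of 283 values under the alternatives. Without the fold change threshold, limma called 3 members lower in microglia at P15, at 8 weeks and pooled over ages, 6 higher and 1 lower from P6 to P15 in microglia, 6 higher from P15 to 8 weeks, 1 lower from P6 to 8 weeks, 7 higher from P6 to P15 in bulk cells, and 3, 6 and 7 with a falling enrichment from P6 to P15, P15 to 8 weeks and P6 to 8 weeks, in comparisons where it called 11.6% to 38.2% of all features in that direction. The 1 member called lower in microglia at 8 weeks became 2 with edgeR, with library size alone and with the stricter filter (10 counts in 12 libraries), became 0 with DESeq2, DESeq2 size factors and no filter, and ran from 0 to 2 as mice were left out. edgeR called 2 members from P6 to P15 in microglia, and leaving mice out called 1 to 2. Library size alone called 1 falling enrichment from P6 to P15, and leaving mice out 0 to 1. Apart from the test without the threshold, the share of all features called under these settings is not given. These counts therefore describe the members' own calls only. Library size alone moved the median of all features by up to -0.473, from P15 to 8 weeks in bulk cells.

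Of 959 member fold changes under alternatives, 894 kept direction and call, 48 gained a call (34 without the threshold), 13 lost one and 4 reversed. The losses included those of miR-29b-2-5p from P15 to 8 weeks in bulk cells, given above. The reversals were uncalled: miR-29a-5p in the change of enrichment from P6 to P15 was -0.00232 with DESeq2 size factors, -0.193 with library size alone and -0.0855 with the stricter filter, and miR-29b-1-5p from P15 to 8 weeks in microglia was -0.155 with library size alone. As mice were left out, enrichment at P6 ran from -0.211 to 0.00594 for miR-29c-3p, -0.288 to 0.0305 for miR-29c-5p and -0.0457 to 0.263 for miR-29b-2-5p, and the miR-29a-5p value above from -0.0978 to 0.133. The enrichment of miR-29a-3p at 8 weeks (1.15) was called with edgeR, DESeq2 size factors, no filter and summed entries. The cause was not tested.

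Without the replicate block no count or call changed, and with it as a fixed term 4 members were again called higher at P6; the only changed call among 49 was the change of enrichment of miR-29a-5p from P15 to 8 weeks (-1.41, adjusted p = 0.0406). Among the ratios under alternatives, 122 values kept direction and call, 3 gained a call and 1 reversed. With P6 female 6 the miR-29c arm ratio at P6 was 0.0137, the change for the miR-29b arm ratio -0.472 and miR-29a-5p over miR-29c-5p in ageing microglia 0.395, or 0.301 with a pseudocount of 2. Mice left out gave -0.0983 to 0.0467 (miR-29c arms, P6) and 0.0633 to 0.12 (8 weeks), the latter called without 8-week male 3 (adjusted exact permutation p = 0.0251). The miR-29b arm change (-0.45, adjusted permutation p = 0.0602) ran from -0.566 to -0.341, called without P6 female 3 (0.012) among others. miR-29a-5p over miR-29c-5p in microglia (0.28, adjusted permutation p = 0.0602) ran from 0.21 to 0.338, called without 8-week female 1 (0.0158) among others. For miR-29b-1-5p over miR-29b-2-5p in bulk cells the range was 0.819 to 1.5. Low counts limit miR-29b-1-5p in P6 bulk cells, with 1 to 34 per library in the group with the highest totals.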

Other observations

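P6 female 6, the mouse set aside, was sequenced to 5421734 counts in microglia and 8867358 in bulk cells. Its microglial library held 1881 CPM of miR-29a-3p, 5846 CPM of miR-29b-3p, 79.9 CPM of miR-29a-5p and 46.8 CPM of miR-29b-1-5p, each below the lowest of the other 10 P6 mice (3965, 9253, 164 and 64.0 CPM). Its 3 chromosome 1 members lay within the range of those mice in microglia. In its bulk library miR-29a-3p (379 CPM) and miR-29c-3p (354 CPM) lay below the range of the others and the remaining 5 members within it.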
